A study of Saccharomyces cerevisiae with 9 samples.

Results

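The comparison described here sets the 3 arrays of Saccharomyces cerevisiae grown with 60 g/L succinic acid against the 3 arrays grown with none, 1 array for each of the strains NBRC1958, NBRC2018 and KF7 at each level, so that 6 of the 9 arrays of the study enter it. They were taken by their labelled dose and paired by strain. The remaining 3 arrays, 1 per strain at 20 g/L, helped to estimate the error and are set beside the comparison where stated. All cultures were grown in YPD medium at 35 °C with shaking at 200 rpm for 6 hours, succinic acid being the only labelled difference between the groups, and the study asked how yeast responds to stress from this acid. The labels leave out the pH of the medium and the ploidy of the strains, and no strain was measured more than once at a dose. Signals are linear probe set intensities in arbitrary units as the authors normalized them, and differences are of log2(signal + 16). Where 3 values follow a gene name they are in the order NBRC1958, NBRC2018 and KF7.

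Succinic acid is an acid with a pair of carboxyl groups, made in the citric acid cycle, that yeast can be engineered to produce by fermentation. As a weak acid it crosses membranes mainly in its undissociated form and gives up protons in the cytosol, which yeast counters with the plasma membrane and vacuolar proton pumps and with acid exporters. A high concentration of a solute also draws water from the cell, which yeast balances with glycerol, and acid or osmotic stress can unfold proteins, which chaperones of the heat shock response bind, disaggregate and refold.

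Between 60 and 0 g/L, 995 of 4359 tested genes (22.8%) passed the test, limma's moderated test with Benjamini-Hochberg adjustment at 0.05. Of these, 378 (8.67%) were higher and 617 (14.2%) lower at 60 g/L. At least 2-fold changes were rarer, with 79 genes (1.81%) higher and 40 (0.918%) lower. Of the genes called, 419 differed by under 0.5 on the log2 scale, and the median size of a called difference was 0.53 against a median standard error over all tested genes of 0.11. In 661 of the 995 the 3 arrays at 60 g/L lay wholly above or below those at 0 g/L, and in 334 the groups overlapped. Over all tested genes 1010 (23.2%) did not overlap between the groups, 321 (7.36%) being higher and 689 (15.8%) lower. The median log2 difference over all tested genes was -0.05. The array medians lay between 294 and 311 and between 96.7% and 97.5% of the yeast genes on an array were above the signal of probe sets for other organisms, and the number of arrays limits the precision. Of 16 haploid and mating genes with a probe set none reached the level required for testing. Of 8 tested reference genes 1, TFC1, was lower (12.5%, against 14.2% of all genes) and none higher. All 8 had log2 differences below 0, from -0.32 to -0.03, with a median of -0.15. The count lower was 0 under quantile normalization and under median centring. With 1 array left out it was 0 except without the 60 g/L KF7 array.

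These counts rest on few arrays. Without the 0 g/L NBRC1958 array 217 genes passed, without the 0 g/L KF7 array 543, without the 60 g/L NBRC2018 array 644, and without the 60 g/L NBRC1958 array 653. Leaving out any 1 of the other 5 arrays gave between 727 and 976. Of 210 genes named by the naming rule that passed, 75 also passed in each of the 9 fits with 1 array left out, and 134 did not pass without the 0 g/L NBRC1958 array. A gene whose signals are given below was among the 75 unless the arrays without which it did not pass are given, and list members given by their difference alone were followed only in the count of their list. Those outside the naming rule were chosen after their values were seen. Without a term for strain 66 genes passed.

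**Figure D1:**
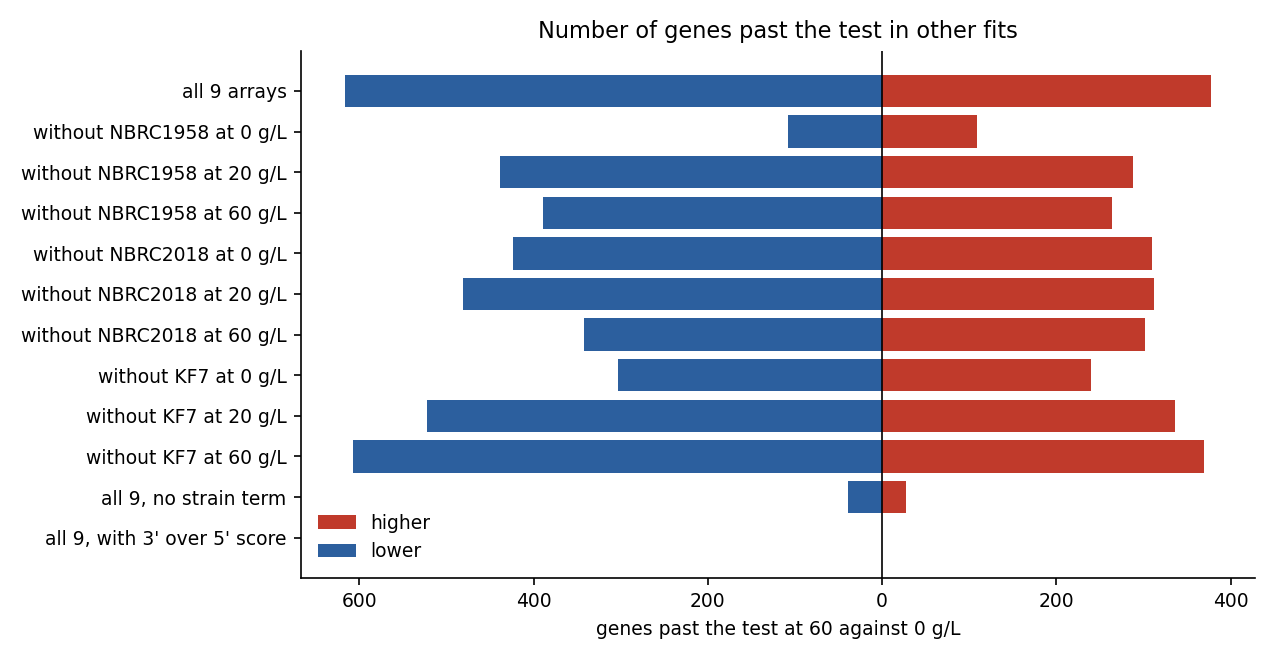
Number of genes past the test at 60 against 0 g/L with all 9 arrays, with each array left out, without the strain term and with the 3' over 5' score as a covariate. Bars to the right count genes higher at 60 g/L (378 with all arrays) and bars to the left genes lower (617). Without the 0 g/L NBRC1958 array the counts were 109 and 108.

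A measure of RNA quality moved with the dose. For 7 control genes the array holds separate probe sets at the 3' and the 5' end, and a higher ratio of the 3' to the 5' signal is usually read as more broken or less fully copied RNA. For SRB4 the ratio read 7.31, 8.72 and 10.8 without acid against 10.7, 12.7 and 16.9 at 60 g/L. For EAF5 it read 2.48, 2.42 and 2.59 without acid against 3.04, 3.97 and 3.25 at 60 g/L. The ratio was higher at 60 than at 0 g/L in every strain for 6 of the 7 genes, and in 2 of 3 strains for TDH1. The mean log2 ratio of each array, called the 3' over 5' score here, was 0.966, 0.999 and 1.04 without acid, 1.06, 1.01 and 1.06 at 20 g/L, then 1.21, 1.35 and 1.26 at 60 g/L. Strain and dose accounted for 91.7% of its variance, so that RNA quality and dose cannot be told apart for most of it. With the score as a covariate, a fit added after the data were seen, 0 genes passed by limma (337 at an unadjusted p under 0.05). The median size of the 995 differences was 0.54 in that fit against 0.53, their median standard error was 0.37 against 0.11, and 60 of the 995 had the other sign. The part of RNA quality in any single difference was not tested. With genes split by length into 4 classes of like size, from the shortest to the longest, 10.8%, 21.4%, 18.9% and 5.53% of tested genes fell.

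**Figure D2:**
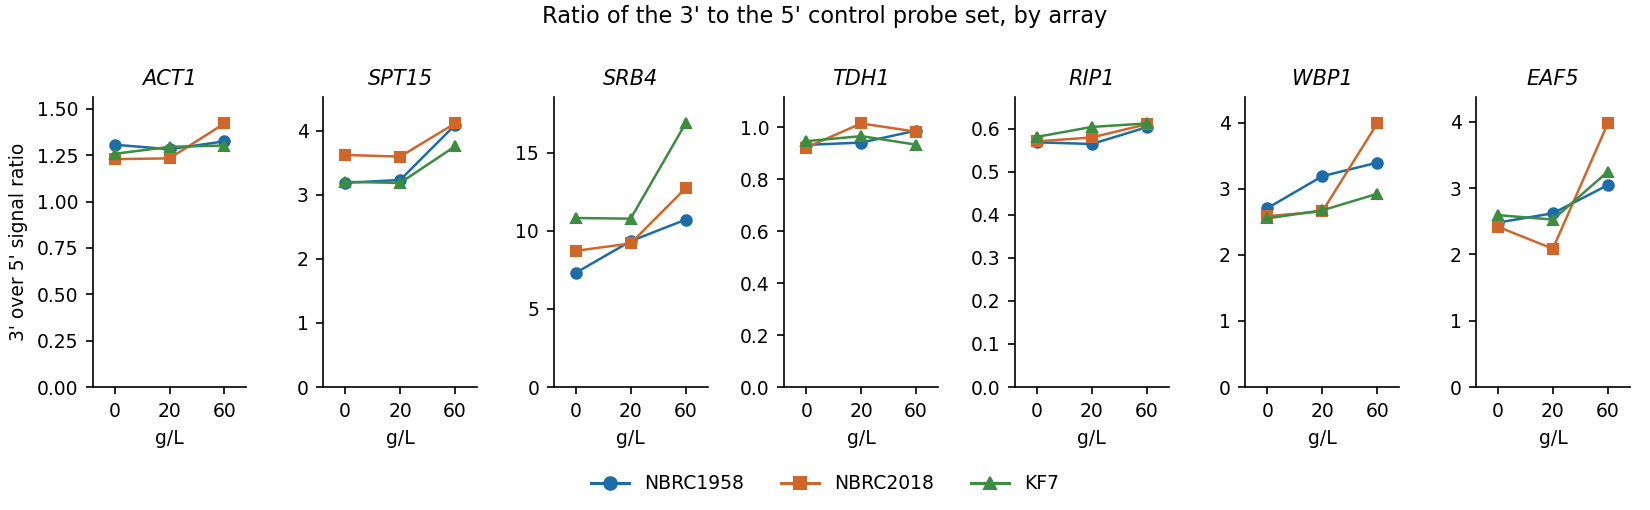
Ratio of the 3' to the 5' control probe set (vertical axis, linear, a panel per gene) on each of the 9 arrays by succinic acid dose, with a line per strain. In SRB4 and EAF5 each strain's ratio is highest at 60 g/L. TDH1 alone has a strain, KF7, that is lower at 60 than at 0 g/L.

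Genes of protein quality control held many of the large rises. The 5 tested genes of small heat shock proteins and disaggregation included 4 that rose (80%, against 8.67% of all tested genes) and none that fell, with a median log2 difference of 1.01 against -0.05 over all genes. This list, like the others below, was chosen with earlier results of these data known, so its share is a description. BTN2, which sorts misfolded proteins into deposits, read 1547, 306 and 439 without acid against 8000.1, 4739.6 and 6248 at 60 g/L. Every array at 60 g/L was above every array at 0 g/L, and NBRC1958, which began highest, had the smallest difference (2.36, 3.88 and 3.78). The fitted difference was 3.34 on the log2 scale (SE 0.37, adjusted p = 0.0022 by limma). Its paralog CUR1 read 144, 104 and 70.4 without acid against 1277, 324 and 329.6 at 60 g/L, and again the groups did not overlap (2.17, SE 0.27, adjusted p = 0.0035 by limma). HSP104, the disaggregase that pulls proteins out of aggregates, rose by 1.01 (adjusted p = 0.0027 by limma). The small heat shock gene HSP42 rose by 0.91 but did not pass without the 0 g/L NBRC1958 array (adjusted p = 0.053 by limma). HSP26, the other small heat shock gene, read 1576, 5954 and 2517 without acid against 2342, 2603 and 3916 at 60 g/L, higher at 60 g/L in NBRC1958 and KF7 and lower in NBRC2018, and did not pass.

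**Figure D3:**
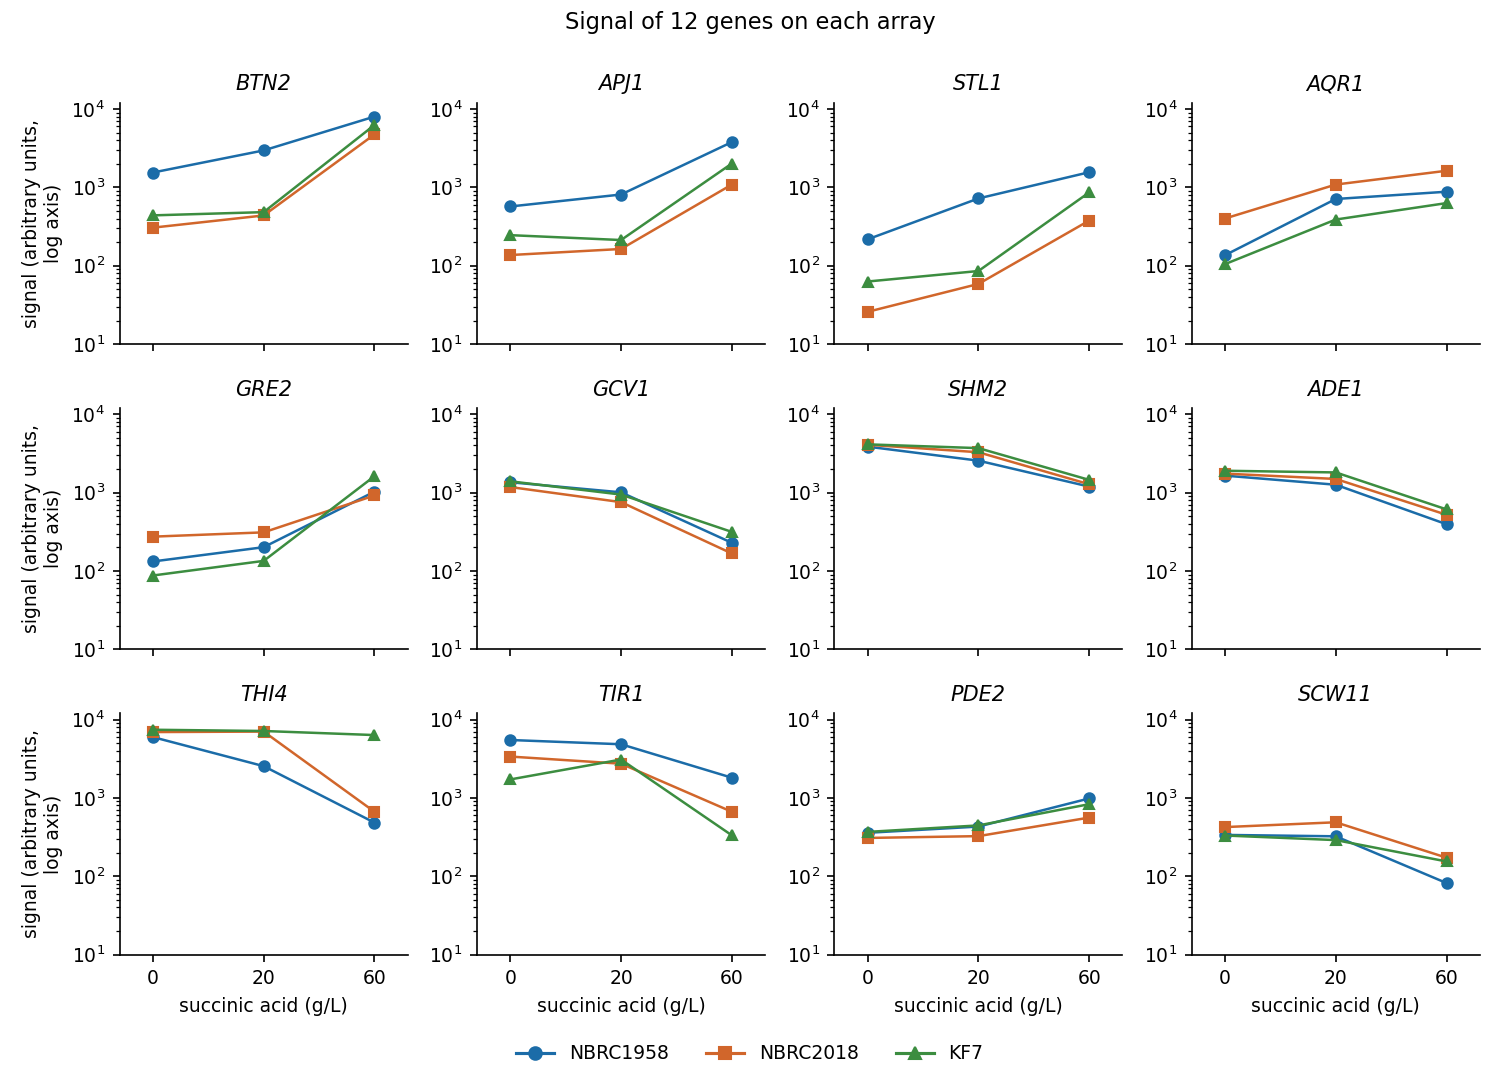
Signal of 12 genes (log axis, arbitrary units) on each array against succinic acid dose, with a line per strain. BTN2, APJ1, STL1, GRE2 and PDE2 lie higher at 60 g/L than at 0 g/L in each strain, and GCV1, SHM2, ADE1, TIR1 and SCW11 lower. AQR1 is already higher at 20 g/L, and THI4 stays at 6336 in KF7 at 60 g/L.

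Of 20 tested genes of the cytosolic Hsp70 system, 8 rose (40%, against 8.67% of all tested genes) and 4 fell (20%, against 14.2%). The other 8 did not pass, and the median was 0.23. APJ1, a J-domain partner of Hsp70 in the cytosol and nucleus, read 570.4, 137 and 246 without acid against 3781, 1086 and 2014 at 60 g/L. The 3 strains' differences were close (2.69, 2.85 and 2.96), and its adjusted p of 0.00013 was among the lowest of the comparison. SSA4, the stress-induced Hsp70, read 629.8, 373 and 264 without acid against 5152, 1277 and 3516 at 60 g/L. The groups did not overlap, and the difference was smallest in NBRC2018 (1.73) and largest in KF7 (3.65), the fitted one being 2.80 on the log2 scale (SE 0.35, adjusted p = 0.0032 by limma). FES1, a nucleotide exchange factor of Hsp70, read 1160.0, 733 and 979 without acid against 5081, 3397 and 2967 at 60 g/L, with no overlap between the groups (log2 difference 1.96, SE 0.17, adjusted p = 0.00087 by limma). SIS1, an essential J-domain protein, rose by 1.34, and the constitutive Hsp70 genes SSA1 and SSA2 rose by 1.11 and 1.28. The 4 that fell were also J-domain genes, XDJ1 (-0.63), CAJ1 (-0.49), HLJ1 (-0.41) and DJP1 (-0.37), and their number was 1 without the 0 g/L NBRC1958 array and 2 without the 0 g/L KF7 array. OPI10, whose human counterpart carries Hsp70 into the nucleus, read 538, 322 and 441 without acid against 3103, 1333 and 1652 at 60 g/L, again without overlap (log2 difference 2.12, SE 0.16, adjusted p = 0.00048 by limma). ZPR1, which helps the elongation factor eEF1A to fold, read 1244, 431 and 455 without acid against 4528, 2103 and 3617 at 60 g/L, and each of its strains moved by at least 1.85.

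In the Hsp90 system 5 of 14 tested genes rose (35.7%, against 8.67% of all tested genes). The 2 that fell (14.3%) were near the 14.2% of all tested genes, and the median was 0.36. HSP82, the inducible Hsp90, read 1269.9, 822 and 759.7 without acid against 5523, 3175 and 2414 at 60 g/L, and the groups did not overlap (log2 difference 1.89, SE 0.17, adjusted p = 0.00098 by limma). HSC82, the constitutive form, rose by 1.05, STI1, which links Hsp70 to Hsp90, by 1.42, and HCH1, an activator of Hsp90, by 0.87. HSP82 and HSC82 are near-identical in sequence, as are SSA1 and SSA2, so that each probe set may read both genes of a pair. SGT1, a cochaperone, rose by 0.67 and did not pass without an NBRC1958 array at 0 or 60 g/L or the 0 g/L KF7 array. The kinase cochaperone CDC37 (-0.49) and SBA1 (-0.44), the yeast p23, were the 2 that fell, and neither passed without the 0 g/L NBRC1958 or KF7 array. With 1 array left out CDC37 passed only without an NBRC2018 array at 0 or 60 g/L.

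Chaperones of other compartments held fewer calls. In mitochondria, HSP78, the disaggregase of the matrix, read 1516, 517 and 743 without acid against 5598, 2425 and 4323 at 60 g/L. All 3 arrays at 60 g/L lay above the others (log2 difference 2.19, SE 0.17, adjusted p = 0.00048 by limma). MDJ1, the J-domain partner of matrix Hsp70, read 1541, 743 and 741 without acid against 3259.6, 1296 and 1539 at 60 g/L, a rise of 0.97 in which the groups overlapped. These were the only 2 of 14 tested mitochondrial chaperone and protease genes to rise (14.3%, against 8.67% of all tested genes), and 3 fell (21.4%, against 14.2%). JAC1, a J-domain protein of iron-sulfur cluster assembly, fell, from 272, 254 and 251 at 0 g/L to 137, 152 and 151 at 60 g/L. SSQ1, its Hsp70 partner, was also lower (-0.38), as was ZIM17 (-0.55), and without the 0 g/L NBRC1958 array 1 of these 3 passed, JAC1. The chaperonin and prefoldin list had 0 of 15 higher and 2 lower (13.3%, near the 14.2% of all tested genes). They were the phosducin-like PLP2 (-0.53) and the chaperonin subunit CCT3 (-0.37). With 1 array left out CCT3 passed only without the 60 g/L NBRC2018 array or the 20 g/L KF7 array. Endoplasmic reticulum folding genes had 2 of 14 higher (14.3%, against 8.67% of all tested genes) and 1 lower (7.14%, against 14.2%), SCJ1, which did not pass when any 1 array was left out. Those 2 were HAC1, the factor of the unfolded protein response, and MPD1, a disulfide isomerase. Neither passed without an NBRC2018 array at 0 or 60 g/L, MPD1 not without an NBRC1958 array and HAC1 not without a KF7 array at those doses.

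**Figure D4:**
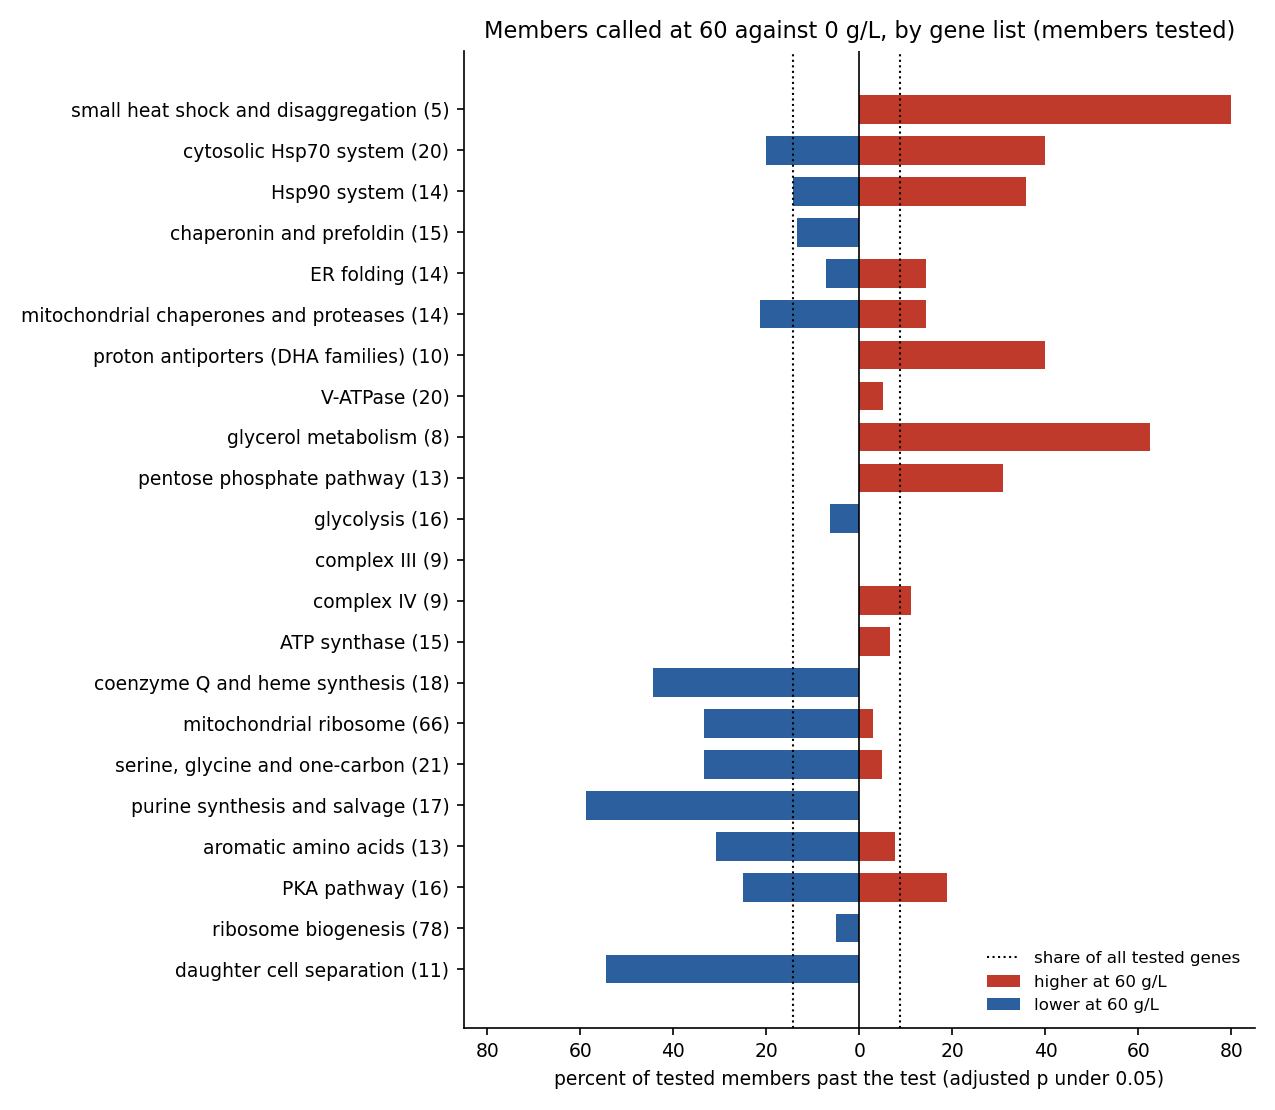
Percent of the tested members of 22 of the 77 gene lists that passed the test as higher (right) or lower (left) at 60 g/L, with the number tested in brackets and dotted lines at the shares over all tested genes (8.67% and 14.2%). The lists and their members were chosen with earlier results of these data known. Small heat shock, glycerol, Hsp70, Hsp90 and antiporter genes extend to the right of the line, and purine, cell separation and coenzyme Q and heme genes to the left.

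Of 10 tested proton antiporters 4 rose (40%, against 8.67% of all tested genes) and none fell, with a median of 0.26. The count that rose was 4 with each array left out. AQR1, which carries short-chain acids and drugs out of the cell, read 136, 401 and 105 without acid against 879.9, 1629 and 630.0 at 60 g/L. All arrays at 60 g/L were above all at 0 g/L (log2 difference 2.32, SE 0.15, adjusted p = 0.00023 by limma). TPO4, a polyamine exporter, read 430.3, 249 and 439 without acid against 1992, 686 and 777 at 60 g/L, and its difference was largest in NBRC1958 (2.17, 1.40 and 0.80). QDR3 read 256, 241 and 203 without acid against 439, 467 and 366 at 60 g/L, a log2 difference of 0.82, and QDR2 rose by 0.84 from levels that differed widely between strains (125, 60.6 and 779.5 at 0 g/L). Of 10 tested ABC transporters, which pump drugs and acids with ATP, 2 rose (20%, against 8.67% of all tested genes) and none fell, with a median of 0.27. They were PDR5 (0.98) and SNQ2 (0.85), neither of which passed without the 0 g/L NBRC1958 array, and PDR5 not without an NBRC2018 array at 0 or 60 g/L or the 0 g/L KF7 array. Of 20 tested subunits and assembly factors of the vacuolar proton pump, VMA16 alone passed (0.32), which is 5% higher against 8.67% of all tested genes. It did not pass when any 1 array was left out (adjusted p between 0.051 and 0.17 by limma). The list's median was -0.01. None of 5 tested genes of the Rim101 pathway, which senses external pH, passed.

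Of 8 tested glycerol genes 5 rose (62.5%, against 8.67% of all tested genes) and none fell, with a median of 0.50. STL1, the proton-coupled glycerol importer, read 217, 25.8 and 62.9 without acid against 1560.4, 377 and 862 at 60 g/L, with the groups apart. The strains' differences were 2.76, 3.23 and 3.48 (log2 difference 3.16, SE 0.31, adjusted p = 0.0015 by limma). GPP2, GPD2, GPD1 and DAK1, enzymes of glycerol synthesis and dihydroxyacetone use, rose by 0.70, 0.66, 0.47 and 0.54. Without the 0 g/L NBRC1958 array only 1 of the 5 passed, and without the 0 g/L KF7 array 3 did. In the osmotic stress (HOG) kinase pathway itself 2 of 17 tested genes were higher (11.8%, against 8.67% of all tested genes) and 1 lower (5.88%, against 14.2%). None of the 3 passed without an NBRC1958 array at 0 or 60 g/L, the 60 g/L NBRC2018 array or the 0 g/L KF7 array. GRE2, a reductase of methylglyoxal and other aldehydes, read 132, 274 and 87.6 without acid against 1028, 919 and 1621 at 60 g/L, with no overlap and the smallest difference in NBRC2018 (2.82, 1.69 and 3.98). Its fitted difference was 2.83 on the log2 scale (SE 0.37, adjusted p = 0.0038 by limma). YDR541C, a relative of GRE2 in sequence, moved the other way, from 367, 667 and 725 at 0 g/L to 110.5, 141 and 311 at 60 g/L (log2 difference -1.63, SE 0.23, adjusted p = 0.0044 by limma). With the 3' over 5' score as a covariate the sign of YDR541C turned (0.18).

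Glycolytic genes were hardly called, while FDH1, PCK1 and HXT5 rose. Of 16 tested glycolytic genes 1 passed, the minor pyruvate kinase PYK2, which fell by 0.83 (6.25% lower, against 14.2% of all tested genes). None rose, against 8.67%, and the list's median was -0.01. PYK2 did not pass without the 0 g/L NBRC1958 array (adjusted p = 0.086), the KF7 arrays at 0 (0.055) or 60 g/L (0.056), or the 60 g/L NBRC2018 array (0.054, all by limma). FDH1, formate dehydrogenase, read 1343, 43.1 and 85.5 without acid against 2771, 492 and 1302 at 60 g/L. NBRC1958 stood high already without acid, so that the groups overlapped, and its difference was the smallest (1.04, 3.10 and 3.70). The fitted difference was 2.61 on the log2 scale (SE 0.43, adjusted p = 0.0071 by limma). PCK1, the gluconeogenic phosphoenolpyruvate carboxykinase, read 408, 65.3 and 206 without acid against 1589, 776 and 1077 at 60 g/L, with no overlap (log2 difference 2.50, SE 0.25, adjusted p = 0.0016 by limma). HXT5, a hexose transporter of slowly growing cells, read 108, 48.4 and 55.6 without acid against 690.1, 243 and 274 at 60 g/L. Its signals without acid were all under the level filter of 118, so it was tested through its arrays with acid. It was the only 1 of 9 tested hexose transport and sensing genes to pass (11.1%, against 8.67% of all tested genes higher). Another 11 of the 22 listed were below the filter.

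In the pentose phosphate pathway 4 of 13 tested genes rose (30.8%, against 8.67% of all tested genes) and none fell. The 4 that rose were TKL2, NQM1, SOL4 and SOL1. NQM1, a second transaldolase, read 585, 99.1 and 141 without acid against 1129.8, 198 and 538 at 60 g/L. SOL4, a second 6-phosphogluconolactonase, read 1183, 325 and 1010.2 without acid against 1969, 916 and 2163 at 60 g/L. In both genes each strain was higher at 60 g/L but the groups overlapped (fitted differences 1.22 and 1.09). TKL2, the second transketolase, rose by 1.60 and did not pass without the 0 g/L NBRC1958 array (adjusted p = 0.056 by limma). SOL1, at 0.66, did not pass without either NBRC1958 array at 0 or 60 g/L (adjusted p = 0.11 and 0.061) or the 0 g/L NBRC2018 array (0.052). The main enzyme genes ZWF1 (0.08), GND1 (-0.10), TKL1 (0.37) and TAL1 (-0.08) did not pass. ADH3, the mitochondrial alcohol dehydrogenase, fell from 4038, 3196 and 3859 to 2814, 2265 and 2548, by a like amount in each strain (-0.52, -0.49 and -0.60).

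Mitochondrial genes fell in some groups and were hardly called in others. None of 9 tested genes of respiratory complex III passed. Of complex IV 1 of 9 rose (11.1%, COX5B by 0.45) and of ATP synthase 1 of 15 (6.67%, TIM11 by 0.35). Both shares were near the 8.67% of all tested genes. None of the genes of these 3 lists fell, against 14.2% of all tested genes. With 1 array left out, COX5B passed only without the KF7 array at 0 or 60 g/L and TIM11 only without the 60 g/L KF7 array. Synthesis of coenzyme Q and heme had 8 of 18 genes lower (44.4%, against 14.2% of all tested genes) and none higher, with a median of -0.31. CAT5 (also called COQ7), a hydroxylase of coenzyme Q synthesis, read 551, 520.5 and 593 without acid against 214, 242 and 417 at 60 g/L. COQ10, a coenzyme Q binding protein, read 147, 187 and 257 without acid against 88.0, 120.5 and 132 at 60 g/L. Both fell (-0.95 and -0.70), and in neither did the groups overlap. COQ2 and COQ3, of the same pathway, fell by 0.61 and 0.61, and without the 0 g/L NBRC1958 array 3 of the 8 passed. Of 66 tested mitochondrial ribosomal proteins 22 were lower (33.3%) and 2 higher (0 to 4 with 1 array left out), with a median of -0.23. MRPL17 read 825, 736 and 849 without acid against 561, 405 and 448 at 60 g/L, MRPL40 fell by 0.67 and MRPS5 by 0.67. The 22 became 3 without the 0 g/L NBRC1958 array, 6 without the 0 g/L KF7 array, 10 without the 60 g/L KF7 array and 14 without either of the other 2 arrays at 60 g/L.

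One-carbon and purine genes fell in numbers that varied little with the array left out, 5 to 7 and 8 to 11. Glycine cleavage in mitochondria and serine hydroxymethyltransferase in the cytosol supply the folate-bound carbon units used to build purines. Of 21 tested genes of serine, glycine and one-carbon metabolism 7 fell (33.3%, against 14.2% of all tested genes) and 1 rose (4.76%, against 8.67%). GCV1, a subunit of the glycine cleavage complex, read 1358, 1178 and 1395 without acid against 229, 167 and 315 at 60 g/L. The lowest array at 0 g/L was above 315, the highest at 60 g/L, and the strains' differences were -2.49, -2.70 and -2.09 (log2 difference -2.43, SE 0.13, adjusted p = 0.00013 by limma). GCV2, the glycine dehydrogenase of the complex, read 975, 893 and 914 without acid against 275, 113 and 289 at 60 g/L. SHM2, the cytosolic serine hydroxymethyltransferase, read 3861, 4082 and 4131 without acid against 1194, 1279 and 1454 at 60 g/L, with close falls in the strains (-1.68, -1.66 and -1.50) and a fitted difference of -1.61 on the log2 scale (SE 0.10, adjusted p = 0.00021 by limma). MTD1, a folate dehydrogenase, read 2336, 1633 and 1629 without acid against 468, 391 and 549 at 60 g/L, a log2 difference of -1.95. The mitochondrial counterparts SHM1 (0.02) and MIS1 (0.17) did not pass, nor did LPD1 (-0.09), the subunit that glycine cleavage shares with other dehydrogenases. The isozymes of serine synthesis split: SER3 rose by 1.16 and SER33 fell by 0.79, SER33 not past the test without the 0 g/L NBRC1958 array.

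Purine synthesis and salvage had 10 of 17 tested genes lower (58.8%, against 14.2% of all tested genes) and none higher. The median of -0.55 was alike in the strains (-0.59, -0.56 and -0.61). ADE1 read 1649, 1749 and 1902 without acid against 395, 522 and 611 at 60 g/L, and the groups lay far apart (log2 difference -1.78, adjusted p = 0.00013 by limma). ADE17, which acts in the last steps of IMP synthesis and uses the one-carbon unit, read 4298, 3975 and 3427 without acid against 1730.4, 2104 and 1636 at 60 g/L, a log2 difference of -1.09. ADE4, the first enzyme of the pathway, read 956, 1047 and 661 without acid against 329, 521 and 317 at 60 g/L, a log2 difference of -1.17. IMD2, an IMP dehydrogenase whose probe set is shared with related sequences, read 1585, 553 and 759 without acid against 264, 242 and 330.1 at 60 g/L. In each of these 4 genes every array at 60 g/L was below every array at 0 g/L. ADE16 (0.03), the isozyme of ADE17, and GUA1 (0.25), which follows IMP dehydrogenase, did not pass. Pyrimidine synthesis had 1 of 13 tested genes lower, URA2 (7.69%, against 14.2% of all tested genes), and none higher, with a median of 0.16. With the 3' over 5' score as a covariate the sign of URA2 turned (0.01). It did not pass without the array at 0 or 60 g/L of NBRC2018 or KF7, or without the 0 g/L NBRC1958 array.

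Amino acid and NAD genes moved in both directions. ARO3 and ARO4, the feedback-controlled first enzymes of aromatic amino acid synthesis, both fell. ARO3 went from 3767, 2757 and 2934 to 1889, 1551 and 1835, and ARO4 from 1449, 1418 and 1931 to 909, 1042 and 1149, with no overlap in either (-0.83 and -0.61). The list had 4 of 13 lower (30.8%, against 14.2% of all tested genes) and 1 higher (7.69%, against 8.67%), the transaminase ARO9 of aromatic amino acid breakdown (1.28). ARO9 did not pass without the array at 0 g/L of NBRC1958 or of KF7 (adjusted p = 0.076 in either case by limma), and without the former 2 of the 4 passed. LEU2, of leucine synthesis, read 1057, 699 and 1139 without acid against 605, 468 and 496 at 60 g/L, a fall of 0.84 without overlap. CAR1, arginase, read 1870.3, 1307 and 2471 without acid against 6609, 4034 and 5627 at 60 g/L, all arrays at 60 g/L being above those at 0 g/L (log2 difference 1.54, SE 0.15, adjusted p = 0.0012 by limma). OAZ1, the antizyme that restrains ornithine decarboxylase, read 131, 232 and 161 without acid against 496, 457 and 356 at 60 g/L, again with the groups apart (log2 difference 1.27, SE 0.17, adjusted p = 0.0041 by limma). SPE1, ornithine decarboxylase itself, fell by 0.50, though not past the test without the 0 g/L NBRC1958 array (adjusted p = 0.067). BNA1 of NAD synthesis from tryptophan read 2186, 1031 and 2856 without acid against 449.8, 392 and 1334 at 60 g/L. Each strain was lower at 60 g/L, KF7 from a high start that made the groups overlap (log2 difference -1.56, SE 0.20, adjusted p = 0.0038 by limma). BNA7 of the same route fell by 0.61. BNA4 (0.36) and QNS1 (0.34) of the same list of 12 rose, but at most 1 of them passed with any 1 array left out, and the remaining 8 did not pass. Of 17 tested amino acid permeases 2 rose (11.8%, against 8.67% of all tested genes) and 3 fell (17.6%, against 14.2%). With 1 array left out these counts were 1 or 2 and 1 to 3. Among permeases, MUP3, a low-affinity methionine permease, rose by 0.83, and OPT1, a glutathione and peptide importer, fell by 0.73.

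Some genes of thiamine and vitamin B6 were among the largest falls. Those described here were named for the size of their fall or, as with THI4, THI73 and PET18, because KF7 stood apart from the other strains, so that their contrast between strains is a description, and no gene passed the test of unequal slopes. SNZ3, whose family makes pyridoxal phosphate and feeds thiamine synthesis, read 3557, 2956 and 3517 without acid against 422, 286 and 1304 at 60 g/L. Its neighbour SNO3 read 1011, 963 and 1276 without acid against 158, 129 and 514 at 60 g/L. The groups were apart in both genes, and KF7 had the smallest difference in each. In SNZ3 the strains' differences were -3.03, -3.30 and -1.42, and in SNO3 -2.56, -2.76 and -1.28. Their probe sets are shared with near-identical relatives. THI22 read 1384, 1520.0 and 4093 without acid against 130.2, 136 and 1398 at 60 g/L, where KF7 at 60 g/L stood level with NBRC1958 at 0 g/L (log2 difference -2.71, SE 0.40, adjusted p = 0.0052 by limma). THI4, which makes the thiazole part of thiamine, read 5971, 6917 and 7408 without acid against 483, 665 and 6336 at 60 g/L, differences of -3.58, -3.35 and -0.22. PET18, which resembles enzymes of thiamine metabolism, showed the same order (-2.63, -2.98 and -0.51), as did THI73 (-2.40, -2.79 and -0.13) and THI21 (-2.29, -2.92 and -0.51). THI4, PET18, THI73 and THI21 passed with all arrays and did not pass without the array at 0 or at 60 g/L of either NBRC strain (highest adjusted p = 0.15, 0.1, 0.14 and 0.11 by limma). With the 3' over 5' score as a covariate the signs of THI4 (0.89), PET18 (0.61), THI73 (0.92), THI21 (1.36), SNZ3 (0.29), SNO3 (0.26) and THI22 (0.15) turned.

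At the cell surface TIR1, a mannoprotein of cold and low oxygen, read 5479.6, 3368 and 1720.0 without acid against 1811, 666 and 333 at 60 g/L. Its paralog TIR2 read 2859, 386 and 938 without acid against 362, 145 and 279.6 at 60 g/L. In both genes each strain was lower at 60 g/L (log2 difference -2.07, SE 0.28, adjusted p = 0.0042 by limma and log2 difference -1.98, SE 0.27, adjusted p = 0.0041 by limma), and in TIR1 the groups overlapped because NBRC1958 at 60 g/L was above KF7 at 0 g/L. Genes of daughter cell separation, expressed after mitosis in daughter cells, had 6 of 11 lower (54.5%) and none higher, with a median of -0.72. SCW11, a glucanase-like wall protein, read 337, 424 and 331 without acid against 82.0, 173 and 155 at 60 g/L, with no overlap (log2 difference -1.37, SE 0.18, adjusted p = 0.0038 by limma). DSE2, DSE1 and DSE4, of the same step, fell by 1.24, 0.85 and 0.73, and without the 0 g/L NBRC1958 array they did not pass (adjusted p = 0.07, 0.071 and 0.053 by limma), which left 2 of the 6. CTS1 (0.21), the chitinase of the same step, did not pass. In RNA of a whole culture, fewer cells at that stage and less RNA per cell cannot be told apart. Of 26 DNA replication genes 5 fell (19.2%, near the 14.2% of all genes), with a median of -0.07. They included the primase subunit PRI1 (306, 318 and 372 without acid against 141, 196 and 231 at 60 g/L), and without the NBRC1958 arrays at 0 and 60 g/L 1 and 3 of the 5 passed. MCM21, of the inner kinetochore, fell by 0.51. It was the only 1 of 9 tested kinetochore genes to pass (11.1%, near the 14.2% of all tested genes lower). Another 8 of the 17 listed were below the level filter.

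The protein kinase A pathway, which drives growth and restrains stress genes, had 3 of 16 tested genes higher (18.8%, against 8.67% of all genes) and 4 lower (25%, against 14.2%), with a median of 0.02. The 3 that rose, PDE2, IRA2 and IRA1, lower cyclic AMP. PDE2, the high-affinity cyclic AMP phosphodiesterase, read 359, 308 and 368 without acid against 984, 561 and 831 at 60 g/L. IRA2, which turns off Ras, read 714, 741 and 696 without acid against 1441, 1257 and 1022 at 60 g/L. The groups did not overlap in either gene (log2 difference 1.13, SE 0.12, adjusted p = 0.0019 by limma and log2 difference 0.76, SE 0.12, adjusted p = 0.0053 by limma). IRA1, the paralog of IRA2, rose by 0.41 and did not pass without the array at 0 g/L of NBRC1958 or of KF7. RAS1 (-0.69), GPA2 (-0.60), the kinase gene TPK2 (-0.75) and the inhibitor BCY1 (-0.51) fell, but none of these 4 passed without the array at 0 g/L of NBRC1958 or of KF7, 2 passed without the 60 g/L NBRC1958 array and 1 without the 60 g/L NBRC2018 array. The sign of RAS1 turned with the 3' over 5' score as a covariate (0.05). LST8, a subunit of both TOR kinase complexes, read 607, 372 and 356 without acid against 2408, 1431 and 1344 at 60 g/L, and its strains agreed closely (1.96, 1.90 and 1.87, adjusted p = 0.00013 by limma). GAL83, a subunit of the Snf1 kinase of glucose repression, fell from 388, 474 and 485 to 246, 292 and 283. SIP2 and SNF4 of that kinase fell by 0.64 and 0.43, and neither passed without the array at 0 g/L of NBRC1958 or of KF7. SIP2 passed with 1 array left out only without the 0 g/L NBRC2018 array or the 20 g/L KF7 array.

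Among transcription factors MET28, part of the complex that drives sulfur genes, read 116, 99.9 and 75.1 without acid against 266, 294 and 272 at 60 g/L. Its signals without acid were all under the level filter of 118, so it was tested through its other arrays. CUP2, the copper sensor, read 286, 242 and 225 without acid against 776, 459 and 362 at 60 g/L. The groups were apart in both (log2 difference 1.39, SE 0.16, adjusted p = 0.0022 by limma and log2 difference 0.97, SE 0.15, adjusted p = 0.0053 by limma). HAP2, of the complex that drives respiratory genes, fell by 1.14 (adjusted p = 0.053 by limma without the 0 g/L NBRC1958 array). The paralogs MSN2 (0.53) and MSN4 (-0.76), activators of general stress genes, passed in opposite directions, and neither did without the 0 g/L NBRC1958 array (adjusted p = 0.12 and 0.057). MSN2 also did not pass without the 60 g/L NBRC1958 array (0.098) or without the KF7 arrays at 0 (0.12), 20 (0.051) or 60 g/L (0.089). RPA14 and RPA43, the 2 subunits of the stalk of RNA polymerase I, moved apart. RPA14 read 959.9, 639 and 729.7 without acid against 1816, 1402 and 1205 at 60 g/L (log2 difference 0.91, SE 0.14, adjusted p = 0.0053 by limma). RPA43 read 259, 408 and 349 without acid against 154, 202 and 225 at 60 g/L (log2 difference -0.75, SE 0.10, adjusted p = 0.0041 by limma). In each strain the former was higher and the latter lower at 60 g/L, with no overlap. Of 78 ribosome biogenesis genes 4 (5.13%, against 14.2% of all genes) were lower and none higher, the largest fall being that of MAK16 (-0.67). Their number was 1 without the 0 g/L NBRC1958 array, 10 without its array at 60 g/L (1 of the 4 among them), and 2 without the 20 g/L NBRC1958 array, an NBRC2018 array at 0 or 60 g/L or the 60 g/L KF7 array.

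Lipid genes gave single changes. TSC10, which makes dihydrosphingosine, read 1002, 1192 and 1164 without acid against 515, 522 and 748 at 60 g/L (log2 difference -0.91, SE 0.11, adjusted p = 0.0032 by limma). Its list of 22 tested sphingolipid genes had 2 higher (9.09%, near the 8.67% of all tested genes), 1 lower (4.55%) and a median of 0.06. Neither of the 2 passed without the 0 g/L NBRC1958 array, and 1 of them did without its array at 60 g/L or an NBRC2018 array at 0 or 60 g/L. CPT1, the last step of phosphatidylcholine synthesis from choline, read 347, 387 and 277 without acid against 549.6, 618 and 498 at 60 g/L, all arrays at 60 g/L being above those at 0 g/L. In autophagy, the conjugating enzyme ATG3 fell from 399, 357 and 439.9 to 217, 198 and 266, and the list had 6 of 20 lower (30%, against 14.2% of all genes) and 3 higher (15%, against 8.67%). Those 6 became 1 without the 0 g/L NBRC1958 array, 2 without that strain's array at 60 g/L, the 60 g/L NBRC2018 array or the 0 g/L KF7 array, and 3 without the 0 g/L NBRC2018 array. Each of the 3 that were higher did not pass without the 0 g/L NBRC1958 array.

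Genes without a common name held some of the largest rises. Of 248 tested genes without one, 39 rose (15.7%, against 8.67% of all tested genes) and 28 fell (11.3%, against 14.2%). Among the 248, 15 were at least 2-fold higher against 2 at least 2-fold lower. YHR033W had the largest difference of the comparison and read 500.4, 41.4 and 51.2 without acid against 3603, 1284 and 1519 at 60 g/L. Each strain at 60 g/L was above all arrays at 0 g/L (log2 difference 3.94, SE 0.36, adjusted p = 0.001 by limma). YGR035C read 48.3, 21.5 and 101 without acid against 1324, 1029.7 and 181 at 60 g/L, a large difference in the NBRC strains and a small one in KF7 (4.38, 4.80 and 0.75), and did not pass without the 0 or 60 g/L array of either NBRC strain (adjusted p between 0.065 and 0.11 by limma). Its signals without acid were all under the level filter of 118, so it was tested through its other arrays. With the 3' over 5' score as a covariate its sign turned (-0.33). PHM8, a phosphatase of lysophosphatidic acid and nucleotides, read 403, 67.0 and 250.4 without acid against 2248, 857 and 992 at 60 g/L. PRM10, a membrane protein of unsettled role, read 171, 106 and 64.2 without acid against 903, 373 and 432 at 60 g/L. Both rose without overlap (2.58 and 2.15).

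The strains were compared by single arrays. With 1 array per strain and dose, the values of a single strain are given here without a test. Differences were widest in NBRC1958, with an SD over genes of 0.57 on the log2 scale, against 0.48 in NBRC2018 and 0.44 in KF7. At least 2-fold higher were 161 genes in NBRC1958 (3.69%), 103 in NBRC2018 (2.36%) and 97 in KF7 (2.23%), and at least 2-fold lower 127 (2.91%), 68 (1.56%) and 43 (0.986%). Of 239 genes at least 2-fold higher in any strain 34 were so in all 3 (14.2%), and of 173 at least 2-fold lower 16 were (9.25%). Across the 4359 genes the differences of 2 strains had a Pearson r of 0.68 for NBRC1958 with NBRC2018, 0.62 for NBRC1958 with KF7 and 0.58 for NBRC2018 with KF7. Genes are not independent replicates, and each strain's 60 and 0 g/L arrays may share a technical difference with those of the others. In a test of unequal slopes on dose between strains 0 of 4359 genes passed (0.0%) by limma, with 421 at an unadjusted p under 0.05 where 218 would be expected by chance, and the smallest adjusted p was 0.34 (IRC7). FDH1 read lowest in its difference in NBRC1958, GRE2 in NBRC2018 and YGR035C in KF7.

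**Figure D5:**
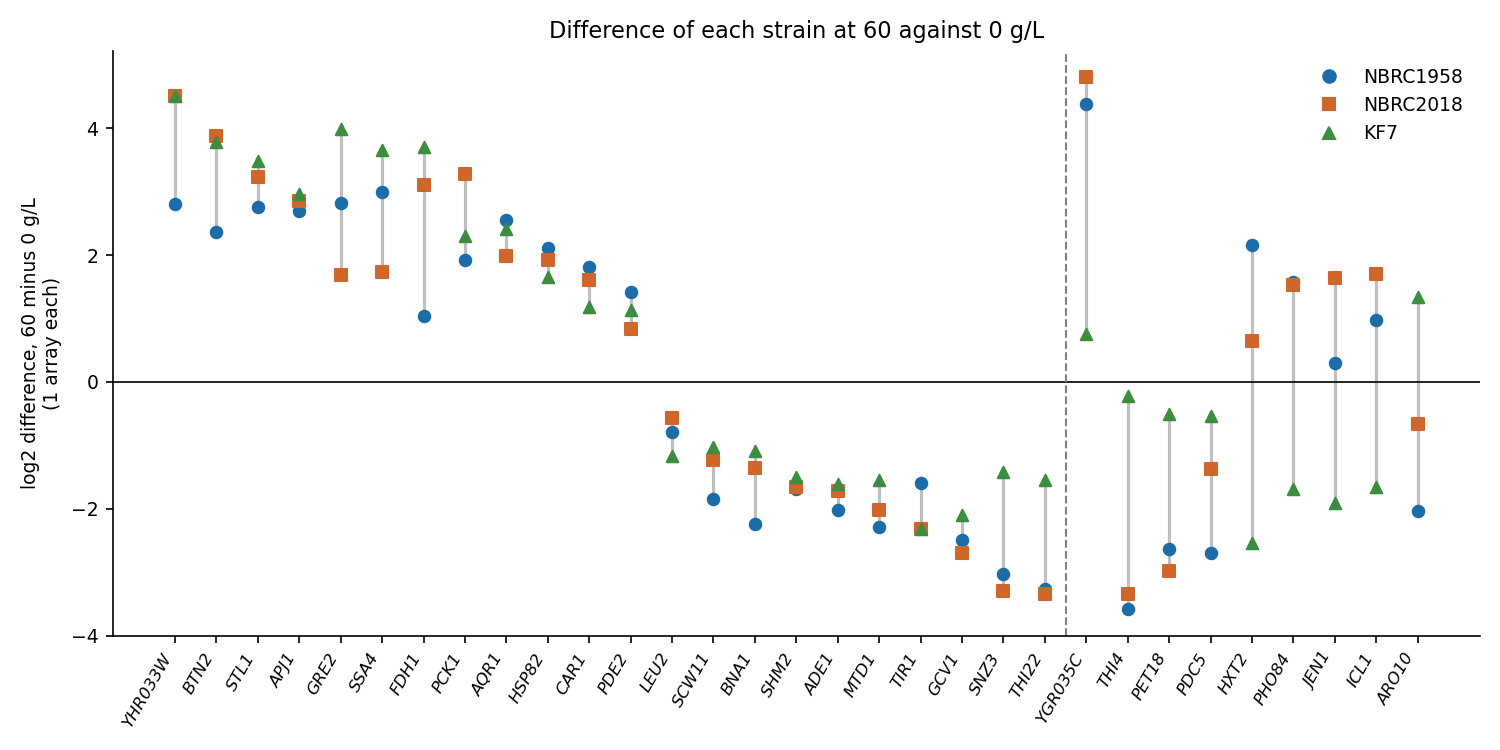
Log2 difference of 60 minus 0 g/L in each strain (a point is 1 array minus 1 array, a grey line spans the 3 strains) for 31 named genes. Left of the dashed line all 3 strains share a direction, as in APJ1 (2.69 to 2.96) and SHM2 (-1.68 to -1.50). Right of it some genes share a direction, as in YGR035C (0.75 in KF7), and others do not, as in HXT2 (2.15 in NBRC1958 and -2.54 in KF7). The line does not rank genes by their spread between strains, and FDH1 (1.04 to 3.70), left of it, spans more than PDC5 (-2.69 to -0.54), right of it.

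At 20 against 0 g/L, a comparison that shares the 0 g/L arrays, 1 of 4359 genes passed (0.0229%), AQR1. Its log2 difference was 1.80 at 20 g/L and 2.32 at 60 g/L. Side by side, YHR033W had 1.08 and 3.94, PCK1 1.06 and 2.50, STL1 0.95 and 3.16, and TIR2 -0.93 and -1.98. The chaperone genes were near 0 at 20 g/L, with APJ1 at 0.18, SSA4 at 0.34, HSP82 at 0.05 and HSP104 at 0.14. SCW11 was at -0.01 and ADE1 at -0.23. AQR1 thus had most of its 60 g/L difference already at 20 g/L, and none of the other genes of this paragraph passed there.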

How the data were processed

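RNA of 9 yeast cultures was hybridised to single-colour arrays after biotin labelling, per the labels' protocols. The deposited value for each of 10928 probe sets is a normalized linear intensity. It was normalized by the authors in a way not given in the sources used here. Of the probe sets, 5498 had 1 yeast gene name in the platform annotation, giving 5449 genes. The probe set with the highest mean stood for a gene with several. The 20% of genes lowest in mean log2 signal (under a signal of 118) were left out, which left 4359.

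Log2(intensity + 16) was fitted with limma 3.58.1 in R 4.3.3, with strain and dose as additive factors over all 9 arrays, which share 1 estimate of the spread. P-values were adjusted over all 4359 genes by Benjamini-Hochberg at 0.05. A second fit gave each strain a line on dose and tested whether the 3 slopes differed. The labelled strains pair the arrays. Between arrays at 0 and at 60 g/L, deviations from the dose means correlated at 0.59 to 0.67 within a strain. Between strains the same correlations were -0.37 to -0.22. The deviations of the 3 strains at a dose cancel out, which pushes correlations between strains below those within a strain and makes them negative. The negative values therefore do not bear on the pairing. No strain was repeated at a dose, so p-values measure the spread of the dose differences between these 3 strains, which may be in part technical.

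The named genes were the 20 largest rises and 20 largest falls shared in sign by all 3 strains, the 10 called genes of highest signal, up to 4 called members per gene list (2 by level where none was called), the 5 genes per strain farthest from the other strains in each direction, and the 5 smallest slope p-values. The members and lists were chosen with earlier results of these data known, so list counts are descriptions. The fit was tested on simulated data. The alternatives were other normalizations, level filters, offsets, probe set rules, variance models, arrays or strains left out, no strain term, and a 3' over 5' score.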

Additional observations from a re-analysis of the deposited data

Results flagged for a closer look

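In 8 of all 4359 tested genes 1 strain was at least 2-fold higher at 60 than at 0 g/L and another at least 2-fold lower. For HXT2, a hexose transporter, the strains' log2 differences were 4.69 apart, at 2.15 in NBRC1958 and -2.54 in KF7. PHO84, the phosphate transporter, differed by 3.26 between the same strains (1.58 and -1.69). KF7 was also the low strain in 4 genes in which NBRC2018 was the high one. They were JEN1, the lactate and pyruvate importer (3.55 apart, 1.64 and -1.91), ICL1, isocitrate lyase (3.36 apart, 1.71 and -1.65), YNL194C, a membrane protein (2.69 apart, 1.41 and -1.27), and IDP2, the cytosolic isocitrate dehydrogenase (2.23 apart, 1.23 and -1.01). KF7 was the high strain and NBRC1958 the low one for ARO10, a decarboxylase of amino acid breakdown (3.38 apart, 1.34 and -2.04), and PIR3, a cell wall protein (2.25 apart, 1.15 and -1.10). Each value is 1 array minus 1 array, so the difference at 60 g/L was not tested by itself. In the test of unequal slopes over the 3 doses none of the 8 passed, with adjusted p between 0.46 and 0.53 by limma.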

How the results depend on the processing

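The count of 995 genes, 378 higher and 617 lower, stayed within 1.5 times under 10 other settings of normalization, level filter, offset, probe set rule and variance model, except that 235 were higher with the lowest 50% of genes left out. Quantile normalization gave 428 higher and 513 lower. Leaving out 1 array or 1 strain gave between 98 (without strain NBRC1958) and 976 genes (without KF7 at 60 g/L), with 63 to 369 higher and 35 to 607 lower. The 6 arrays at 0 and 60 g/L alone gave 472 genes, 199 higher and 273 lower. The main fit pairs the arrays by strain, and without that replicate block 66 genes passed, 27 higher and 39 lower. With the 3' over 5' score as a covariate 0 genes passed in either direction. In that fit 16 named differences turned sign, to -0.33 in YGR035C, 0.18 in YDR541C, 0.19 in MET3, 0.92 in THI73, 1.36 in THI21, 2.58 in THI13, 0.61 in PET18, 0.26 in SNO3, 0.89 in THI4, 0.29 in SNZ3, 0.15 in THI22, -0.072 in GPX2, 0.012 in URA2, -0.030 in INM1, 0.048 in CDC20 and 0.047 in RAS1, and the cause was not tested. Unequal slopes between strains passed in 0 genes, and in 0 or 1 with an array left out (1 without NBRC2018 at 0 g/L). The planned look at promoter letters was not run. The level filter, at a signal of 118, set which low genes were tested and lay well above the 95th percentile of probe sets for other organisms (15.1). With the filter at that background 5316 genes were tested and 1171 passed.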

Other observations

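Some genes whose mean level was too low for the test had groups that did not overlap, as was so in 23.2% of the tested genes. They were chosen after their values were seen and are given as values only. DAN1, a cell wall mannoprotein of cells without oxygen, had a mean signal of 117 at 0 g/L and 17.4 at 60 g/L. SNZ1, of vitamin B6 synthesis, had 247 and 77.0, and AGP2, a regulator and transporter at the plasma membrane, 171 and 67.8. In the other direction IRC15, a microtubule-associated protein, had 35.4 at 0 g/L and 243 at 60 g/L. PRM7, a pheromone-regulated gene, had 51.2 and 185, GTO3, an omega-class glutathione transferase, 33.2 and 118, and YBR182C-A 16.9 and 140. PRM7 has another probe set, with a mean log2 difference of 0.78 against 1.59 in the one used. DAN1 at 60 g/L and YBR182C-A at 0 g/L lay near 15.1, the 95th percentile of probe sets for other organisms.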
